A study of Mus musculus with 18 samples.

Results

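The p38 and JNK kinase cascade genes described here are 10 of the 248 genes of an inflammation panel, measured in TA muscle of mouse models of cancer cachexia, the muscle and fat wasting that accompanies many tumors. They were taken by name: the MAP kinase kinase kinases Map3k1 and Map3k5, the MAP kinase kinases Map2k6 and Map2k4, the MAP kinases Mapk14 and Mapk8, and the downstream kinases Mapkapk2, Mapkapk5, Mknk1 and Rps6ka5. All 10 were among the 168 genes tested. The nCounter assay counts color-coded probes bound to RNA, and 100 ng of total RNA was loaded per sample. The 18 samples, all from male mice, formed 6 groups of 3, with a tumor-bearing and a non-tumor-bearing group for each model. In the C26 model the mice were of strain CD2F1 and the tumor-bearing ones received cells of the C26 colon carcinoma line. In the LLC model they were C57/B6 mice and the tumor-bearing ones received cells of the LLC Lewis lung carcinoma line. In the KPP model, also on C57/B6, tamoxifen given into the abdominal cavity induced the tumors. The labels give neither the alleles of the KPP mice, nor the driver of their recombination, nor whether KPP controls received tamoxifen. Samples are named by group and by the letter A, B or C of their labels, which do not say that each sample was a separate mouse, so p-values measure the spread between these samples.

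In a MAP kinase cascade each kinase phosphorylates and activates the next. MAP3Ks such as ASK1 and MEKK1 respond to stress and to inflammatory receptors, the MAP2Ks MKK6 and MKK4 activate p38 and JNK, and those kinases act on transcription factors and on further kinases such as MK2 and MSK1. In skeletal muscle p38 takes part in differentiation, in part through MEF2 factors, and p38 signalling is also known to raise ubiquitin ligase genes of muscle breakdown. The panel measures RNA, and phosphorylation, which sets the activity of these kinases, was not measured.

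Map2k6 and Rps6ka5, the called members that lay above background, are shown with the 250 bases before each of their annotated RefSeq starts (GRCm38.p6), since their values are compared below. All 10 members matched the RefSeq promoter table, with 16 windows in all. Capitals mark a match to TGANTCA (a loose form of the AP-1 motif, present in 6.75% of all 32841 such windows) or to CAGCTG (an E-box, 13%). Both patterns read alike on either strand. The loose form takes any middle base, and the marked TGATTCA has T where the AP-1 consensus has C or G. TGACGTCA (CRE, 1.55%), TTCNNNGAA (STAT, 7.02%) and the MEF2 consensus (2.92%) were also searched, on both strands, and none of them matched in these 4 windows.
Map2k6, first start, chr11:110398852-110399101, plus strand: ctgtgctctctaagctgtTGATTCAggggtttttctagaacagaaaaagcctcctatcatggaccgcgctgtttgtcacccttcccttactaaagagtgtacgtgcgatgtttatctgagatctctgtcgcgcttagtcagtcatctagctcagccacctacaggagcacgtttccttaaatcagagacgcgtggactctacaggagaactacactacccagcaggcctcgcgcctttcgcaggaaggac
Map2k6, second start, chr11:110478265-110478514, plus strand: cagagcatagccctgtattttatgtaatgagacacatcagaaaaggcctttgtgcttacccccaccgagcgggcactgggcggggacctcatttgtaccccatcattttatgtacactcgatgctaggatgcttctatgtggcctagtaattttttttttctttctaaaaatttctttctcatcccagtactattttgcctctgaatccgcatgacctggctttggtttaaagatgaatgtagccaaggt
Map2k6, last start, chr11:110479090-110479339, plus strand: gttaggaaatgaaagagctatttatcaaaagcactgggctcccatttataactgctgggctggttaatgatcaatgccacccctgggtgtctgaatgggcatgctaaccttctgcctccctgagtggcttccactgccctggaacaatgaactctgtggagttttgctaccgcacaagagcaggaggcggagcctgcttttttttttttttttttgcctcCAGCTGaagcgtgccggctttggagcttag
Rps6ka5, chr12:100725121-100725370, minus strand: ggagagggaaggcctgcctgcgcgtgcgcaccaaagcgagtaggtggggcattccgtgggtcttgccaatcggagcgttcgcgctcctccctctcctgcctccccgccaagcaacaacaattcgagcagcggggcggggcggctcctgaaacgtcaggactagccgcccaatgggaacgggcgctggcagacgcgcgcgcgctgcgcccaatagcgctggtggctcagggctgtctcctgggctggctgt
The 3 Map2k6 windows had a GC content of 50.4%, 43.2% and 49.2% with 12, 5 and 4 CpG dinucleotides, and the Rps6ka5 window had 68.0% and 25, against a median of 52.4% and 6 over all windows. The sources used here give no probe sequences, so which Map2k6 transcripts the probe detects is unknown.

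Each model had been normalized on its own, so levels were compared within a model. The gene values of a sample rest on 29743 (C26 tumor C) to 402788 counts (KPP tumor B). The counting error of a value of 100 depends on the value that 1 count has in that sample. It was 7.76% (LLC tumor A and KPP tumor B) to 17.9% (KPP control B). The C26 samples labelled tumor-bearing had 29743 to 50792 counts, against 75594 to 95038 in their controls. Stat3 and Il6ra, genes of IL-6 signalling, had fold changes of opposite sign in C26 and KPP: Stat3 averaged 258 ± 18.5 (SD, n = 3) in the C26 samples labelled tumor-bearing and 904 ± 133 in their controls, a log2 fold change of -1.80. Its fold change in KPP was 0.46, which did not pass, and Il6ra stood at -1.66 and 2.27. The difference between the models was -2.26 for Stat3 and -3.93 for Il6ra (limma adjusted p = 0.000345 and 0.00207). Other genes kept their sign. Among genes with a limma adjusted p under 0.05 in both models, C3 was lower in both (-2.43 in C26 and -1.51 in KPP). Ifi27l2a, Mmp9 and Ptger3 were also lower in both, and Masp1 was higher in both (0.96 and 1.18). C7, Il6ra and Map2k6 had opposite signs. The deposited values hold no independent check of the C26 labels, and every direction in C26 rests on them. With the sign of the C26 fold changes turned, Map2k6 in C26 would differ by 0.35 from KPP and by -1.65 from LLC, where the labels as given yield 4.88 and 2.87. The other members would not all move nearer to KPP. Map2k4, Map3k1, Mapkapk5, Mknk1 and Rps6ka5 would differ less from it than as labelled, and Map3k5, Mapk14, Mapk8 and Mapkapk2 would differ more. In bulk muscle fewer cells of a type and less RNA per cell cannot be told apart. Fold changes compare tumor-bearing with control samples as log2(value + 1), a scale that understates changes of low genes, and a change is called where limma's adjusted p over the 168 genes was under 0.05.

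Map2k6 encodes MKK6, the kinase that activates p38 with little action on JNK. It was higher in the C26 samples labelled tumor-bearing, lower in KPP tumor-bearing muscle and not called in LLC. In C26 its normalized signal was 119, 80.9 and 54.9 in controls A, B and C and 393, 382 and 401 in the samples labelled tumor-bearing. The groups lay well apart, with every value of the second group over 3 times the highest control, and the second group spread far less than the first. The means were 85.0 ± 32.3 and 392 ± 9.40 (SD, n = 3), a log2 fold change of 2.26 (95% interval 1.34 to 3.18, adjusted p = 0.00262), or 4.80-fold.

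In KPP, Map2k6 was 1098, 1088 and 1071 in the controls and 416, 79.5 and 166 in tumor-bearing samples A, B and C. All 3 tumor-bearing values lay below the controls, which were close together, and tumor A was the nearest to them. The means were 1085 ± 13.7 and 220 ± 175 (SD, n = 3), and the gene fell by 2.61 on the log2 scale (interval -3.53 to -1.69, adjusted p = 0.0021), a 6.12-fold lower level. Without KPP tumor A the fold change was -3.23 (adjusted p = 2.46e-05), and without tumor B it was -2.04 (0.0051). Fitted on the 6 KPP samples alone, the same fold change had an adjusted p of 0.0581, or 0.0547 over the genes above background in KPP. The shared fit, which gave the interval and the p of 0.0021, also uses the spread of the C26 and LLC groups.

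In LLC, Map2k6 was 392, 335 and 297 in controls and 250, 251 and 175 in tumor-bearing samples. The groups did not overlap, with tumor-bearing muscle lower, but the log2 fold change of -0.61 (interval -1.53 to 0.31, adjusted p = 1) did not pass. The means were 341 ± 47.8 and 225 ± 43.5 (SD, n = 3). Over 13 alternatives the lowest limma adjusted p of Map2k6 in LLC was 0.107. The fit pools the spread of a gene over all groups. The median SD of genes on the log2 scale was 0.115 in LLC controls and 0.197 in LLC tumor-bearing samples. In the other models it ran from 0.270 (KPP controls) to 0.645 (C26 controls), so LLC tests rest in part on that wider spread. The C26 and KPP fold changes differed by 4.88 on the log2 scale (interval 3.57 to 6.18, adjusted p = 8.97e-05), and those of C26 and LLC by 2.87 (1.57 to 4.17, adjusted p = 0.00853). KPP minus LLC was -2.01 (-3.31 to -0.70), which did not pass (adjusted p = 0.124); it passed without KPP tumor A (-2.62, adjusted p = 0.0046).

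**Figure D1:**
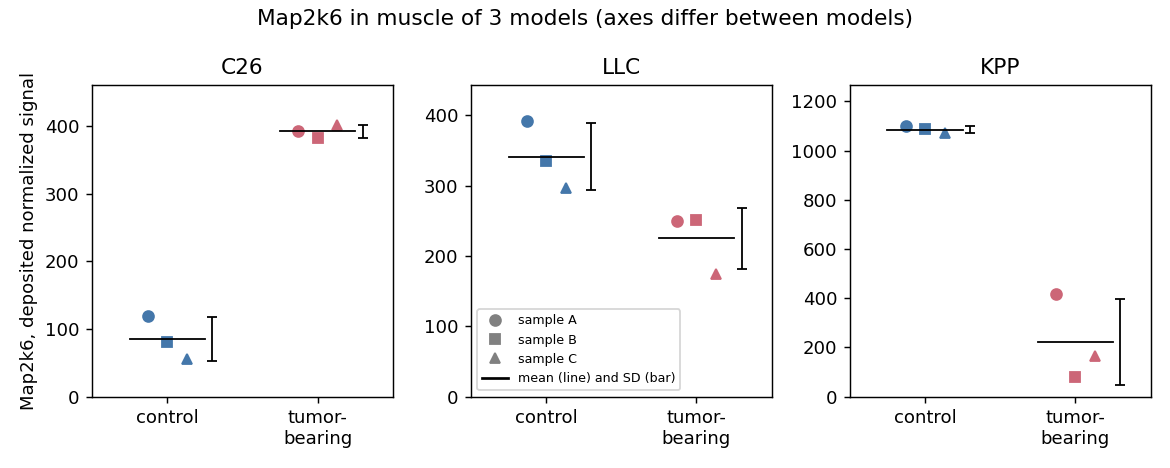
Normalized signal of Map2k6 (linear axis from 0, each model on its own axis) in each of the 18 samples, by model and group; horizontal lines are means and the bars beside them ± SD of 3 samples. C26 samples labelled tumor-bearing sit at 382 to 401 against 54.9 to 119 in controls, while KPP tumor-bearing samples sit at 79.5 to 416 against 1071 to 1098.

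Relative to the geometric mean of the 6 housekeeping genes of the same sample, Map2k6 stood at 10.3% to 22.4% in C26 controls and 71.8% to 75.4% in the C26 samples labelled tumor-bearing. It stood at 60.5% to 62.0% in KPP controls and at 4.49% to 23.5% in KPP tumor-bearing muscle. LLC controls had 50.3% to 66.4% and LLC tumor-bearing muscle 29.6% to 42.5%. On this scale the C26 controls lay below the controls of both other models, and the C26 samples labelled tumor-bearing lay above all other groups. These percentages are a description across tables that were normalized separately, and C26 was the one model on CD2F1, so strain and model cannot be told apart.

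**Figure D2:**
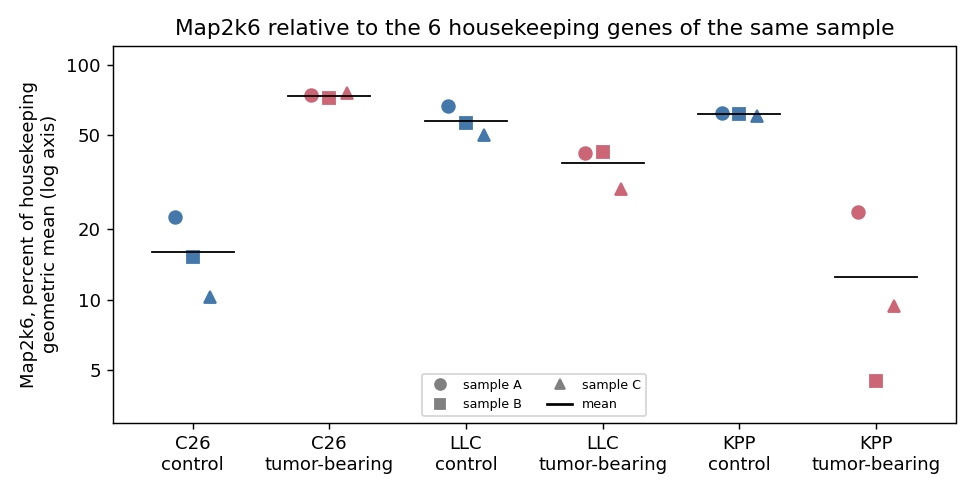
Map2k6 as a percent of the geometric mean of 6 housekeeping genes of the same sample (log axis), one point per sample, with the group mean as a line. C26 controls (10.3% to 22.4%) and KPP tumor-bearing samples (4.49% to 23.5%) are the low groups; the other 4 groups lie between 29.6% and 75.4%.

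Among the 10 members, 3 were called in C26, all higher (Map2k6, Mapkapk5 and Rps6ka5), against 51 of 168 genes, or 30.4%, over the whole test, 15 higher and 36 lower. In KPP 1 member was called, Map2k6, against 11.3% of all genes. In LLC no member was called by limma and none had an unadjusted p under 0.05, and of all genes 0% were called, with 4 of 168 under 0.05 unadjusted. The members' share lay at the background share in each model. Their median log2 fold change in C26 was 0.30, against -0.31 over all tested genes, in LLC -0.12 against 0.01, and in KPP 0.04 against 0.01. Tests of the difference between models called 2 members for C26 against LLC (background 14.9%), 3 for C26 against KPP (16.1%) and none for KPP against LLC by limma (0.595%), where 1 had an unadjusted p under 0.05.

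The direction of members in C26 depended on the scaling. With the deposited housekeeping scaling 7 of 10 had a positive fold change, and with scaling to 4 housekeeping genes, median centring or quantile normalization all 10 did, with Map3k1, Mapk14 and Mknk1 turning. The median over all genes moved from -0.31 to 0.09, 0.25 and 0.16, and the C26 calls from 15 higher and 36 lower to 28 and 19, 30 and 16, and 29 and 21. In KPP they moved from 9 higher and 10 lower to 7 and 13, 9 and 10, and 15 and 13. The housekeeping genes themselves did not keep together in C26: Gapdh and Pgk1 had log2 fold changes of 0.79 and 0.85, against -0.61 for Gusb, -0.37 for Hprt, -0.36 for Cltc and -0.29 for Tubb5. Map2k6 in C26 ranged from 2.02 to 2.83 over 14 alternatives, called in each of them. Groups without overlap made up 42.2% of the genes above background in C26, 27.1% in LLC and 29.9% in KPP. Of the 9 members above background in each model, 3 had none in C26 (Map2k6, Mapkapk2 and Rps6ka5), 1 in LLC (Map2k6) and 3 in KPP (Map2k6, Map3k1 and Mapk14).

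**Figure D3:**
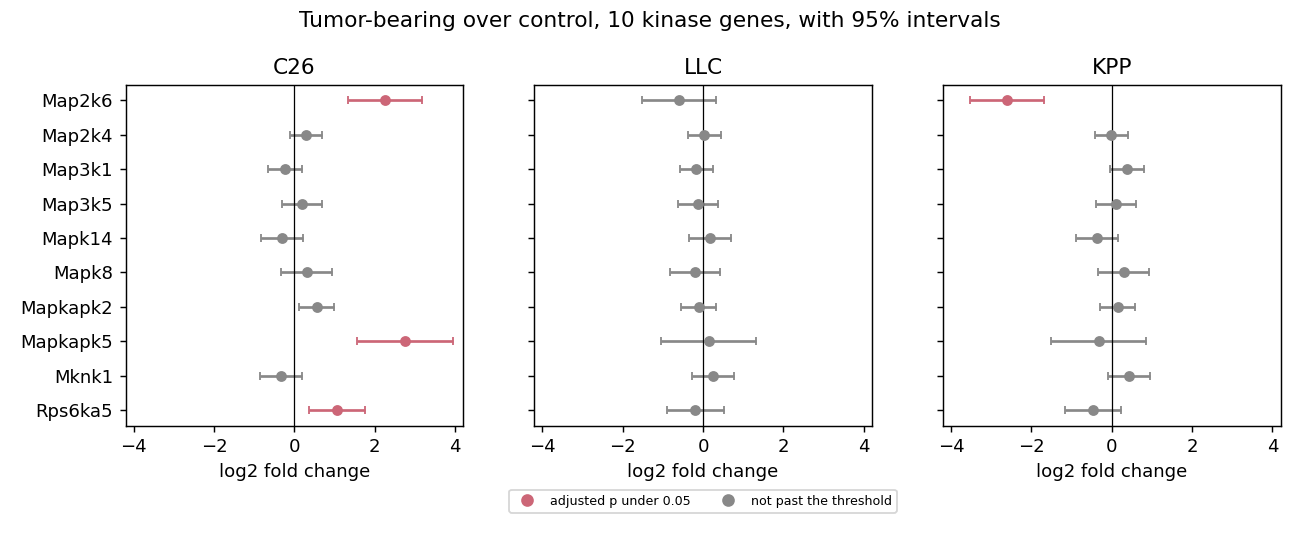
Log2 fold change, tumor-bearing over control, of the 10 genes in each model, with limma's 95% intervals; colored points passed an adjusted p of 0.05. Map2k6 stands at 2.26 in C26, -0.61 in LLC and -2.61 in KPP, and the intervals of most other genes cross 0.

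Map2k4 encodes MKK4, which activates JNK and also p38. Its normalized signal averaged 250 ± 52.5 in C26 controls and 302 ± 19.3 in the samples labelled tumor-bearing (SD, n = 3), and its log2 fold change was 0.29 in C26 (interval -0.12 to 0.70), 0.03 in LLC (-0.38 to 0.44) and -0.02 in KPP (-0.43 to 0.39). The groups overlapped in every model, and no change was called. Scaled without Gapdh and Pgk1 it passed in C26 (0.70, adjusted p = 0.0349).

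Map3k1 encodes MEKK1, which acts mainly on the JNK branch, and Map3k5 encodes ASK1, which responds to oxidative stress and TNF. Map3k1 was 171, 134 and 192 in KPP controls and 196, 245 and 201 in tumor-bearing samples. The groups did not overlap, tumor-bearing higher, and the log2 fold change of 0.38 (interval -0.04 to 0.79) did not pass (adjusted p = 0.231). Its fold change was -0.23 (-0.65 to 0.18) in C26, turning to between 0.17 and 0.45 under the other scalings, and -0.16 (-0.58 to 0.25) in LLC. Map3k5 was 0.19 (-0.30 to 0.69) in C26, -0.13 (-0.62 to 0.37) in LLC and 0.09 (-0.40 to 0.59) in KPP, with overlapping groups throughout.

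Mapk14 encodes p38 alpha, the most widely expressed p38 kinase, and Mapk8 encodes JNK1. Mapk14 was 2295, 2270 and 2031 in KPP controls and 1963, 1289 and 1948 in tumor-bearing samples. All 3 tumor-bearing values were lower, with tumor B lowest, and the log2 fold change of -0.37 (interval -0.89 to 0.15) did not pass (adjusted p = 0.359). In C26 it was 470, 892 and 810 in controls and 588, 548 and 553 in the samples labelled tumor-bearing. Control A lay below all the others while controls B and C lay above them; the fold change was -0.31 (-0.83 to 0.21), and without control A it was -0.59 and passed (adjusted p = 0.0495), while the other scalings gave 0.10 to 0.25. In LLC it was 0.17 (-0.35 to 0.70). Mapk8 stood at 0.31 (-0.32 to 0.93) in C26, -0.21 (-0.83 to 0.42) in LLC and 0.29 (-0.33 to 0.92) in KPP, and its KPP mean of 1004 ± 287 against 798 ± 52.3 (SD, n = 3) rested on a high tumor B at 1308.

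Rps6ka5 encodes MSK1, a nuclear kinase activated by p38 and ERK that phosphorylates CREB and histone H3. In C26 it was 37.7, 71.7 and 46.3 in controls and 105, 121 and 91.8 in the samples labelled tumor-bearing. Every value of the second group was above every control, and the log2 fold change was 1.06 (interval 0.36 to 1.76, adjusted p = 0.0264), or 2.08-fold. The call did not hold without C26 control A (0.86, adjusted p = 0.0811), without control C (1.00, 0.0573), without tumor A (1.06, 0.0631) or without tumor B (0.96, 0.0923), nor with group-wise array weights (0.14), in C26 alone (0.113, or 0.0768 over its own genes) or without the LLC samples in the fit (0.0787).

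In LLC, Rps6ka5 was 145, 110 and 122 against 77.8, 120 and 141 in tumor-bearing samples (-0.19, interval -0.89 to 0.51). In KPP it was 223, 315 and 262 against 318, 164 and 130 (-0.48, -1.18 to 0.22, adjusted p = 0.376). The groups overlapped in both models, and KPP tumor A, the tumor-bearing sample with the highest Map2k6, was also the highest for Rps6ka5. C26 minus KPP was 1.53 (0.54 to 2.53, adjusted p = 0.0346). That call was lost in 8 of the 12 fits that left out 1 sample, where the difference ran from 1.26 to 1.91 and the adjusted p from 0.004 to 0.0897, and it was also lost with array weights (0.117) and without the LLC samples (0.0881).

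Mapkapk2 encodes MK2, the p38 target that phosphorylates small heat shock proteins and prolongs the life of cytokine mRNAs. In C26 it was 639, 990 and 890 in controls and 1128, 1275 and 1261 in the samples labelled tumor-bearing. The groups did not overlap, and the log2 fold change of 0.56 (interval 0.12 to 1.00) lay just outside the threshold (adjusted p = 0.0502). It passed in 7 of 14 alternatives, at 0.97, 1.12 and 1.18 under the other 3 scalings (adjusted p = 0.0071, 0.00634 and 0.00246), and without C26 control B (0.69, adjusted p = 0.029). In LLC it was -0.11 (-0.55 to 0.33) and in KPP 0.14 (-0.29 to 0.58), with overlapping groups. C26 minus LLC was 0.67 (adjusted p = 0.119) and passed under the other 3 scalings (1.14, 1.30 and 1.55; adjusted p = 0.0317, 0.0367 and 0.00698). C26 minus KPP was 0.42 (0.322) and passed without Gapdh and Pgk1 (1.03, 0.0376) and with quantile normalization (1.32, 0.0171).

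Mapkapk5 encodes PRAK, a kinase activated by p38 and by the atypical ERK3. It was near background, which was set at a value of 20. In C26 it was 1, 1 and 3.18 in controls, both values of 1 being the lowest the table holds, and 11.6, 11.0 and 33.0 in the samples labelled tumor-bearing. The groups did not overlap, but 1 of the 6 values reached 20, and negative controls of the C26 table reached 8.81. The fold change of 2.75 on the log2(value + 1) scale (adjusted p = 0.00318) is set by such low values: with values under 20 set to 20 it was 0.23 (adjusted p = 0.424). With C26 fitted alone the adjusted p was 0.0533. The gene entered the test through 3 values above background, 1 each in C26 tumor C, LLC tumor B and KPP control B. In LLC 5 of 6 values were at the floor of 20 and tumor B was 26.9, and in KPP it was 3.73, 27.8 and 9.24 against 6.21, 5.95 and 13.1 (-0.33).

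Mknk1 encodes MNK1, which phosphorylates the translation factor eIF4E downstream of p38 and ERK. In KPP it was 313, 315 and 370 in controls and 583, 430 and 354 in tumor-bearing samples, with tumor C inside the control range. The log2 fold change was 0.43 (interval -0.09 to 0.94, adjusted p = 0.271), against 0.24 (-0.28 to 0.76) in LLC and -0.32 (-0.84 to 0.19) in C26, where the other scalings gave 0.08 to 0.33.

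**Figure D4:**
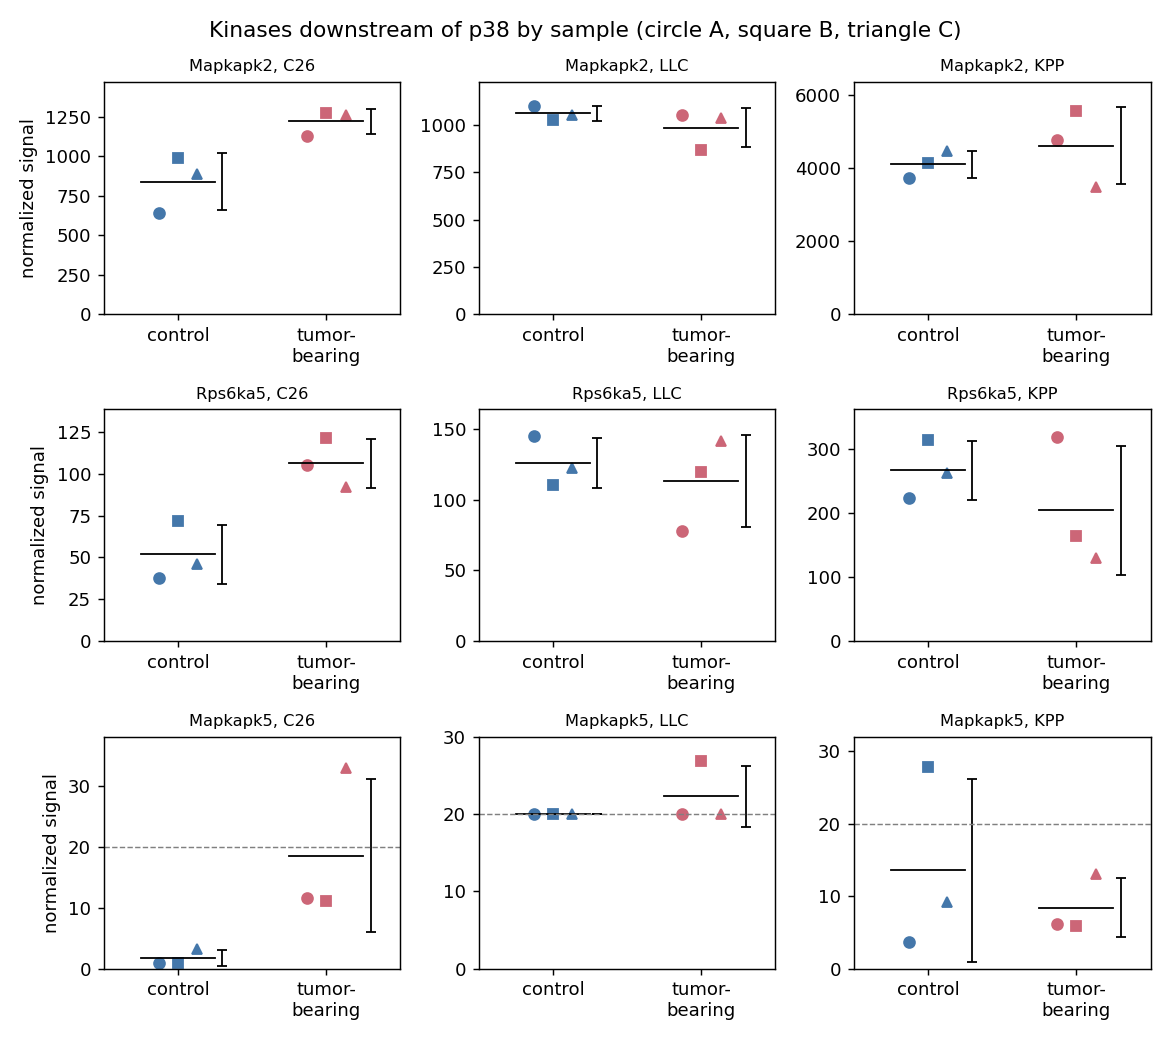
Normalized signal (linear axes from 0) of Mapkapk2, Rps6ka5 and Mapkapk5 in each sample, by model, with the group mean and ± SD of 3 samples; the broken line in the Mapkapk5 row marks the background value of 20. Rps6ka5 in C26 is at 37.7 to 71.7 (controls) against 91.8 to 121 (labelled tumor-bearing), while most Mapkapk5 values lie at or under 20.

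Of the upstream inputs of the cascade, 12 were listed and 11 tested, and 4 of these were called in C26, against 30.4% of all tested genes. Map3k7, which encodes the MAP3K TAK1, was higher at 597 ± 123 against 380 ± 64.0 (SD, n = 3; log2 fold change 0.65, adjusted p = 0.0261). Il1r1, the IL-1 receptor, Myd88, its adaptor, and Traf2, a TNF receptor adaptor, were lower (-1.31, -1.81 and -1.07; adjusted p = 0.0157, 0.00318 and 0.00408). Map3k7 and Myd88 passed under all 3 other scalings, Traf2 under none of them, and Il1r1 with quantile normalization alone. Myd88 was at 17.7 to 19.4 in the samples labelled tumor-bearing, under background. In KPP Tradd, an adaptor of the TNF receptor, was lower (-0.81, adjusted p = 0.0452), which did not pass with median centring (0.0768) or quantile normalization (0.202). With quantile normalization Myd88 passed in KPP, higher (0.76, adjusted p = 0.0499). In LLC none of the 11 passed limma's test and 0 had an unadjusted p under 0.05.

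Of the substrates and transcription factors reached by p38, JNK and their downstream kinases, 17 were listed and 16 tested, and in C26 3 were higher and 2 lower, against 30.4% of all tested genes called there. Mef2c, a MEF2 factor phosphorylated by p38, was 1393, 1920 and 662 in controls and 2513, 2540 and 3086 in the samples labelled tumor-bearing (1.16, adjusted p = 0.0146). All 3 of the latter lay above all controls. Hspb2, a small heat shock protein of muscle (0.77, 0.0389), and Ddit3, the stress factor CHOP (1.47, 0.0254), were also higher, and all 3 genes passed under every other scaling. Hspb2 is counted here as a gene of the list, and no data here show that these kinases phosphorylate it. Myc was lower, at 44.2 ± 1.60 against 249 ± 158 (SD, n = 3; -2.27, adjusted p = 0.00677), and stayed called under the other scalings, whereas Elk1 (-0.98, adjusted p = 0.0288) was under background in all 6 samples and passed under none of them. Under those scalings Atf2, Creb1 or Pla2g4a passed as well, making 5 higher and 1 lower. Creb1 was under background in all 6 C26 samples (10.1 to 15.5), and Pla2g4a reached background only in C26 tumor C (22.1). In KPP and LLC no substrate passed by limma, and 5 and 0 of 16 had an unadjusted p under 0.05, against 42 and 4 of all 168 genes. Myc passed in KPP, higher, with median centring and with quantile normalization. Of 7 tested genes of the ERK branch, Shc1 was lower in C26 (-0.54, adjusted p = 0.0389) and stood between -0.13 and 0.02 under the other scalings, where it did not pass. Grb2, an adaptor, and Hras1 passed in C26 with median centring and Grb2 with quantile normalization, all higher. Hras1 was under background in all 6 C26 samples (4.68 to 13.4).

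Markers of other cells moved beside these values, and their part in the result was not tested. In C26 4 of 5 macrophage markers were lower, with a sum of 633 to 3071 in controls, highest in control A, against 208 to 454 in those labelled tumor-bearing. Over all 168 tested genes 15 were called higher and 36 lower in C26. These marker calls are those of the deposited scaling, and under the other scalings 16 to 21 of all genes were called lower. Cfd, which fat cells make, ran from 1390 to 9604 in controls, with control A highest, and from 47.0 to 87.4 in those labelled tumor-bearing. Of 6 connective tissue markers 2 were higher and 3 lower, the sum running from 1853 to 6595 and from 702 to 1395. Of 3 skeletal muscle markers Mef2c and Hspb2, which are also in the substrate list, were higher, the sum running from 1214 to 2717 and from 3206 to 4118. In KPP none of the muscle or macrophage markers was called by limma (0 with an unadjusted p under 0.05). Among 6 connective tissue markers 3 were lower and 1 was higher (sum 3846 to 5512 in controls and 1707 to 1921 in tumor-bearing muscle). Of 2 endothelial markers 1 was higher. Over all 168 tested genes 9 were called higher and 10 lower in KPP. Cfd ran from 1201 to 5037 in KPP controls and from 420 to 921 in tumor-bearing muscle, without overlap (log2 fold change -1.93, adjusted p = 0.13, unadjusted p = 0.0247). The skeletal muscle sum was 9220.5 to 11774 in KPP controls and 9112 to 9914 in tumor-bearing muscle. Myl2, a marker of slow fibres, ranged from 207 to 2123 in KPP tumor-bearing muscle and from 469 to 832 in controls.

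Likeness to Map2k6 was measured as Pearson's r over the 18 samples on the log2 scale after subtracting each model's mean, as a description: the samples share the group differences and the scaling. Over 167 other genes the median r was -0.15. The highest were C7 (0.79), Mef2c (0.75), Irf5 (0.72), Prkca (0.71) and Rps6ka5 (0.69), and the lowest Nfe2l2 (-0.94), Cebpb (-0.92) and Il6ra (-0.92). Of the other members Mapkapk5, with most values at or under 20, followed at 0.50, Map2k4 was at 0.28 and Map3k1 was the lowest at -0.63. After subtracting each group's mean, Prkca, a protein kinase C gene, stayed at 0.72 and Mef2c at 0.54, while C7, a complement gene, was at 0.06, Irf5 at 0.15 and Rps6ka5 at 0.33. Most of the spread of Map2k6 within groups lay in the KPP tumor-bearing samples, so these values rest largely on that group. With the model's mean subtracted, Map2k6 ran from -2.45 to -0.074 there and from -1.68 to -0.58 in C26 controls. It ran from -0.65 to -0.13 in LLC tumor-bearing samples, and the other groups spread less. Among the members, r within groups ran from -0.67 (Mapk8) to 0.38 (Mknk1), with Mapkapk5 at -0.10. Within groups under the other 3 scalings C7 ran from 0.23 to 0.41, Irf5 from 0.19 to 0.29, Rps6ka5 from 0.49 to 0.62 and Mef2c from 0.69 to 0.74.

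Cebpb, a transcription factor gene of the IL-6 response, had an r of -0.93 with Map2k6 within groups, Nfe2l2 -0.86 and Il6ra -0.71. Like the other values within groups, these rest largely on the KPP tumor-bearing samples. These genes were picked by r over the same 18 samples, so the values describe them and test nothing. In KPP tumor-bearing samples A, B and C Cebpb was 2663, 6244 and 4003, and in KPP controls 1661, 1520 and 1613. Map2k6 ran in the opposite order there, at 416, 79.5 and 166, so the sample with the lowest Map2k6 had the highest Cebpb. In C26 Cebpb was 810, 1200.5 and 1637 in controls and 761, 766 and 699 in the samples labelled tumor-bearing, again with the lowest Map2k6 and the highest Cebpb in the same sample, control C. In LLC it was 575, 568 and 550 in controls and 769, 918 and 1155 in tumor-bearing samples, whose Map2k6 was lowest in C. In the LLC controls, by contrast, both genes were highest in A and lowest in C. The other scalings weakened part of this: with each model's mean subtracted, r was -0.89, -0.85 and -0.84 for Il6ra, -0.79, -0.61 and -0.65 for Cebpb and -0.53, -0.22 and -0.47 for Nfe2l2 without Gapdh and Pgk1, with median centring and with quantile normalization. Within groups Cebpb then stood at -0.73, -0.33 and -0.49 and Nfe2l2 at -0.34, 0.14 and -0.35, while Prkca stood at 0.83, 0.86 and 0.80.

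**Figure D5:**
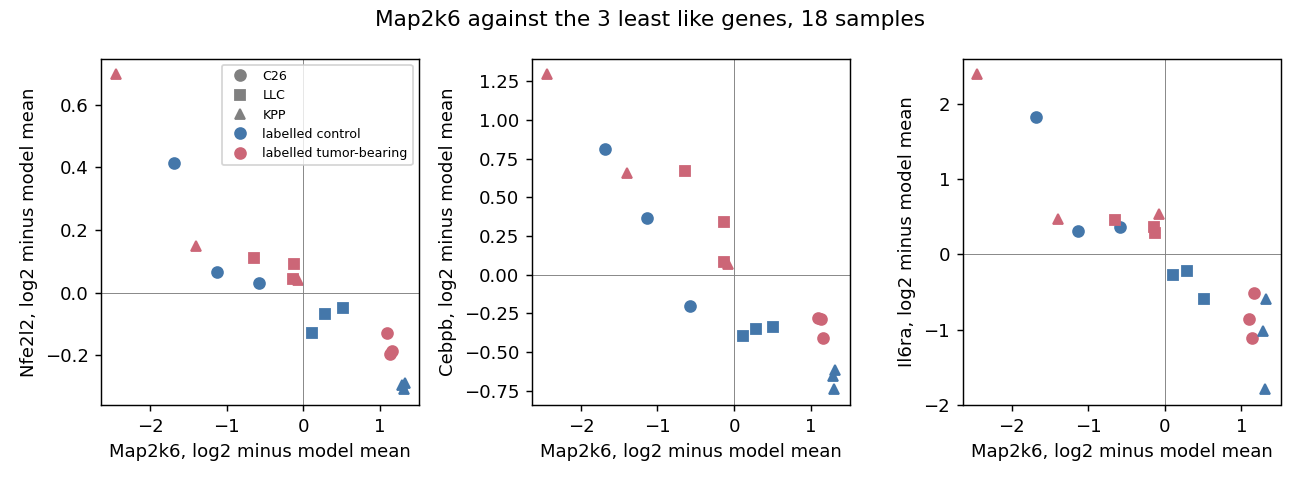
Each of the 18 samples by its Map2k6 (horizontal axis) and by Nfe2l2, Cebpb or Il6ra (vertical axis), as log2(value + 1) minus the mean of its model; the groups are told apart by color and marker. The points fall from upper left to lower right in all 3 panels (r = -0.94, -0.92 and -0.92). KPP tumor-bearing samples B and C and C26 controls B and C lie at the low end of Map2k6.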

How the data were processed

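Total RNA from TA muscle was counted with an nCounter panel of mouse inflammation genes. The deposited table holds 266 rows: 248 genes, 6 housekeeping genes and 12 control probes. The deposited signal had been normalized by the authors, by steps not given in the sources here. The values themselves show that the 6 samples of a model share 1 geometric mean over the housekeeping genes, so scaling was done per model. In every sample low values fall on multiples of 1 count (100% within 0.1 of a step), a background had been subtracted in C26 and KPP, and LLC values had a floor of 20. Precision intervals from counts cover counting error only.

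Genes reaching 20 in at least 3 of 18 samples, counting LLC values only above the floor, were tested (168). Log2(value + 1) was fitted with limma 3.58.1 in R 4.3.3, with a mean for each group and all samples in 1 fit (residual degrees of freedom: 12), eBayes and Benjamini-Hochberg adjustment per contrast. The test is two-sided and the threshold an adjusted p of 0.05; intervals are limma's 95% intervals without adjustment. The fit was also run on simulated data with known fold changes, as a check of the code. That run does not bear on single calls here. No 2 columns were identical.

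The members, pathway and marker lists were chosen with earlier results of these data known. Named genes are all members, list genes that passed in a model, the 5 genes most and 3 least correlated with Map2k6, and the cell type markers. Stat3, Ifi27l2a, Mmp9, Ptger3 and list genes that passed only under another scaling were named after their values were seen. Same-lettered samples of a model deviated together (r over 0.1) in 2 of 9 pairs, so letters were not taken as pairs. Alternatives changed the pseudocount, filter, floor, scaling, block, spread, samples fitted and single samples; a fit without the LLC samples was added after seeing the data. Gene positions and promoters come from RefSeq. The sources used here give no cartridge or scan batch.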

Additional observations from a re-analysis of the deposited data

Results flagged for a closer look

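With the deposited scaling the fold changes of 3 genes differed between models by limma's test of the difference itself. Map2k6 differed by 2.87 on the log2 scale between C26 and LLC and by 4.88 between C26 and KPP, higher in C26 in both. Both differences rest on the C26 labels, and with the sign of C26 turned they would be -1.65 and 0.35. In C26 all 3 samples labelled tumor-bearing lay above all controls, and in LLC and KPP all 3 tumor-bearing samples lay below them. Rps6ka5 differed by 1.53 between C26 and KPP, a call kept in 4 of the 12 fits that left out 1 sample and lost with a replicate block, with array weights and without the LLC samples. Its difference between C26 and LLC (1.25, adjusted p = 0.0842) passed without Gapdh and Pgk1 (1.71, 0.0475), with quantile normalization (2.02, 0.0473) and without C26 control B (adjusted p = 0.0455), and differences of Mapkapk2 passed under other scalings. Mapkapk5 differed by 2.62 between C26 and LLC and by 3.08 between C26 and KPP, on values mostly under background: with values under 20 set to 20 these differences were 0.09 and 0.38 and did not pass (adjusted p = 0.917 and 0.335). The Mapkapk5 difference between C26 and LLC also missed the threshold in 11 of the 12 fits that left out 1 sample (2.13 to 2.97, adjusted p = 0.0263 to 0.0801).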

How the results depend on the processing

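With 3 samples a group and counts as low as 29743 in a sample, members near background (Mapkapk5) have fold changes set by values under 20. Over 14 alternatives Map2k6 stayed called in C26 and, over 12, in the difference between C26 and KPP (4.48 to 5.48); in LLC it was not called in any of 13 (-0.69 to -0.57). The number of members called in C26, 3, became 5 when scaled without Gapdh and Pgk1 and 1 with C26 fitted alone, over all genes or its own, and ran from 2 to 4 when 1 sample was left out. In KPP, 1 became 0 with the model fitted alone over either set, where Map2k6, at -2.61, had an adjusted p of 0.0581 and 0.0547. Those fits differ from the shared fit both in the number of samples and in the groups whose spread they use. Which of these moved the p-value was not tested. Leaving out 1 sample gave Map2k6 1.99 to 2.54 in C26, -3.23 to -2.04 in KPP, -0.70 to -0.44 in LLC and 4.31 to 5.49 for C26 minus KPP.

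With the letter as a replicate block, Rps6ka5 in C26 (1.06, adjusted p = 0.0604) and, between C26 and LLC, Map2k6 (2.87, 0.0559) and Mapkapk5 (2.62, 0.0559) lost their calls, as did Rps6ka5 between C26 and KPP (1.53, 0.0752). The letters are not known to pair samples.

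Fold changes that were not called turned sign as follows, and the cause was not tested. Without Gapdh and Pgk1: Map3k1 0.17, Mapk14 0.10 and Mknk1 0.080 in C26, Map2k4 -0.027 in LLC, Map3k5 -0.11 and Mapkapk2 -0.061 in KPP, and Map3k1 0.39 for C26 minus LLC. Median centring: Map3k1 0.33, Mapk14 0.25 and Mknk1 0.24 in C26, Map2k4 -0.030 in LLC, Map3k1 0.56, Mapk14 0.14 and Mknk1 0.058 for C26 minus LLC, and Map2k4 0.016 for KPP minus LLC. Quantile normalization: Map3k1 0.45, Mapk14 0.12 and Mknk1 0.33 in C26, Map2k4 -0.0021 and Mapk14 -0.051 in LLC, Mapkapk2 -0.14 and Mapkapk5 0.28 in KPP, Map3k1 0.74, Mapk14 0.18 and Mknk1 0.27 for C26 minus LLC, Map3k1 0.011 for C26 minus KPP, and Mapkapk5 0.22 for KPP minus LLC. A pseudocount of 20 turned Mapk8 for C26 minus KPP (-0.0087).

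Leaving out 1 sample also turned uncalled values. The ranges were -0.042 to 0.59 for Mapk8 in C26, -0.11 to 0.11 (Map2k4), -0.33 to 0.015 (Map3k5) and -0.37 to 0.057 (Rps6ka5) in LLC, and -0.077 to 0.081 (Map2k4), -0.10 to 0.32 (Map3k5), -0.0051 to 0.33 (Mapkapk2) and -0.95 to 0.36 (Mapkapk5) in KPP. Between models they were -0.23 to 0.23 (Mapk14), -0.34 to 0.30 (Mapk8) and -0.12 to 0.30 (Map3k5) for C26 minus KPP, -0.20 to 0.071 (Map3k1) for C26 minus LLC, and -0.12 to 0.10 (Map2k4), -1.08 to 0.22 (Mapkapk5) and -0.0071 to 0.40 (Mknk1) for KPP minus LLC.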
